A study of Canis lupus familiaris with 77 samples.

Results

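The miR-30 family is a set of conserved microRNAs (miRNAs) that were read here by small RNA sequencing (miR-seq) in 16 tissues of the dog. The members were the rows of the deposited table whose name, taken up to its first separator, was cfa-miR-30a, cfa-miR-30b, cfa-miR-30c, cfa-miR-30d, hsa-miR-30d-3p or hsa-miR-30e-5p. All 6 were found among the 650 miRNAs detected. The prefix gives the species whose annotation named the row (cfa for dog, hsa for human, rno for rat), and 7 more rows of the same hairpins and of the seed relative miR-384 were kept for comparison. Each group was 1 tissue of male beagles that were 10 months old and carried no genetic change or treatment, and the organs had been perfused with phosphate buffered saline. There were 5 libraries for each of 14 tissues (brain, heart, skeletal muscle, liver, pancreas, kidney, lung, duodenum, jejunum, ileum, testis, thymus, bone marrow and plasma), 4 for colon and 2 for sciatic nerve, 76 in all. Per the study's methods the tissues came from 5 dogs, so libraries of different tissues share animals. The labels do not say which dog gave which library, and every test here takes the libraries as independent. The study's methods describe the sciatic nerve samples in conflicting ways, as parts of 1 pool or as individual nerves beside a pool. The spread within sciatic nerve may therefore be technical.

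A miRNA hairpin is cut into a 5p and a 3p arm, of which usually 1 is kept in the silencing complex, and the seed near the 5′ end of the kept arm decides which messenger RNAs are repressed. The 5p arms of miR-30a, miR-30b, miR-30c, miR-30d and miR-30e share their seed, so their predicted targets overlap, and the family is known from work on kidney podocytes, heart muscle and epithelia. The rows cfa-miR-30a, cfa-miR-30b, cfa-miR-30c, cfa-miR-30d and hsa-miR-30e-5p are the 5p arms, and hsa-miR-30d-3p is the partner arm of cfa-miR-30d. In the RefSeq gene table of the dog the family lies as neighbours at 3 places. MIR30A sits next to MIR30C-2 inside a long noncoding RNA gene on chromosome 12, MIR30B next to MIR30D inside a long noncoding RNA gene on chromosome 13, and MIR30E next to MIR30C-1 inside the protein-coding gene NFYC on chromosome 15. Both miR-30c hairpins give the same 5p arm, so the cfa-miR-30c row sums these loci, while their 3p arms have rows of their own. How reads that match several near-identical members were shared among rows is not given in the sources used here, and the split between members is uncertain to that extent.

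Total miRNA reads ranged from 157871 to 7896424 a library, so that 3 reads correspond to 0.380 to 19.0 RPM (reads-per-million of all miRNA reads of the library). No pair of libraries of the same tissue agreed within sampling noise. The levels of miRNAs that mark a tissue ranked first or second in that tissue for 28 of 42 marker and tissue pairs, and the lung marker cfa-miR-34b had a median of 0 RPM in lung. In 9 libraries the median marker of the labelled tissue was under 10% of the highest library of that tissue: skeletal muscle replicate 4, duodenum replicates 3, 4 and 5, testis replicates 2 and 3, and thymus replicates 2, 3 and 5. These are called low-marker libraries, and the calls of the members in their tissues are also given without them. Bone marrow and plasma were extracted by other methods than the solid organs according to the study's methods. Extraction and tissue therefore cannot be told apart there. The study also reports low RNA integrity in plasma, and in bone marrow a lower share of mapped reads that went with low integrity. A subset of its kidney samples had low integrity as well, with a share of mapped reads like that of other kidney samples. The part of RNA integrity in the results was not tested. In bulk RNA, fewer cells of a type and less of a miRNA per cell cannot be told apart.

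The family was abundant in every tissue. The 5 5p rows together held 12.1% of all miRNA reads in the median heart library (6.15 to 13.1%), 10.2% in lung (6.98 to 11.8%) and 9.33% in kidney (6.13 to 15.4%). The share was smallest in plasma, at 1.18% (0.609 to 2.28%), and was also small in the intestine, with medians of 2.60% in duodenum, 2.43% in jejunum, 2.54% in ileum and 2.24% in colon. Bone marrow had the narrowest range, 3.55 to 3.67%. The 5 5p rows were detected in all 76 libraries, and hsa-miR-30d-3p in 74. The exceptions were the low-marker libraries skeletal muscle replicate 4 and thymus replicate 2, where a count of 0 allows up to 13.6 and 19.0 RPM.

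The members differed widely in level, and each had its own order of tissues. Over all libraries the median level was 23586 RPM for cfa-miR-30a, 8563 RPM for cfa-miR-30d, 6723 RPM for hsa-miR-30e-5p, 2373 RPM for cfa-miR-30c, 1142 RPM for cfa-miR-30b and 52.7 RPM for hsa-miR-30d-3p. Kidney had the highest tissue median for cfa-miR-30a and cfa-miR-30c, and heart for the other 4 members. The ratio of the highest to the lowest tissue median was 62.6 for cfa-miR-30a, 52.1 for cfa-miR-30b, 20.2 for cfa-miR-30d, 17.3 for hsa-miR-30d-3p, 15.0 for cfa-miR-30c and 6.63 for hsa-miR-30e-5p. The median of hsa-miR-30e-5p thus moved least among tissues. By the limits of the study for ubiquitous miRNAs (a coefficient of variation under 10% and an SD of at most 1), applied here to the tissue medians on the log2 RPM scale, hsa-miR-30e-5p was the single member that qualified, with a coefficient of variation of 7.04% and an SD of 0.88. These criteria were met by 14 of the 266 highly expressed miRNAs, whose median SD was 1.83. Highly expressed miRNAs are those with a median above 100 RPM in at least 1 tissue. The study itself names other miRNAs as ubiquitous and does not list hsa-miR-30e-5p among them.

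**Figure D1:**
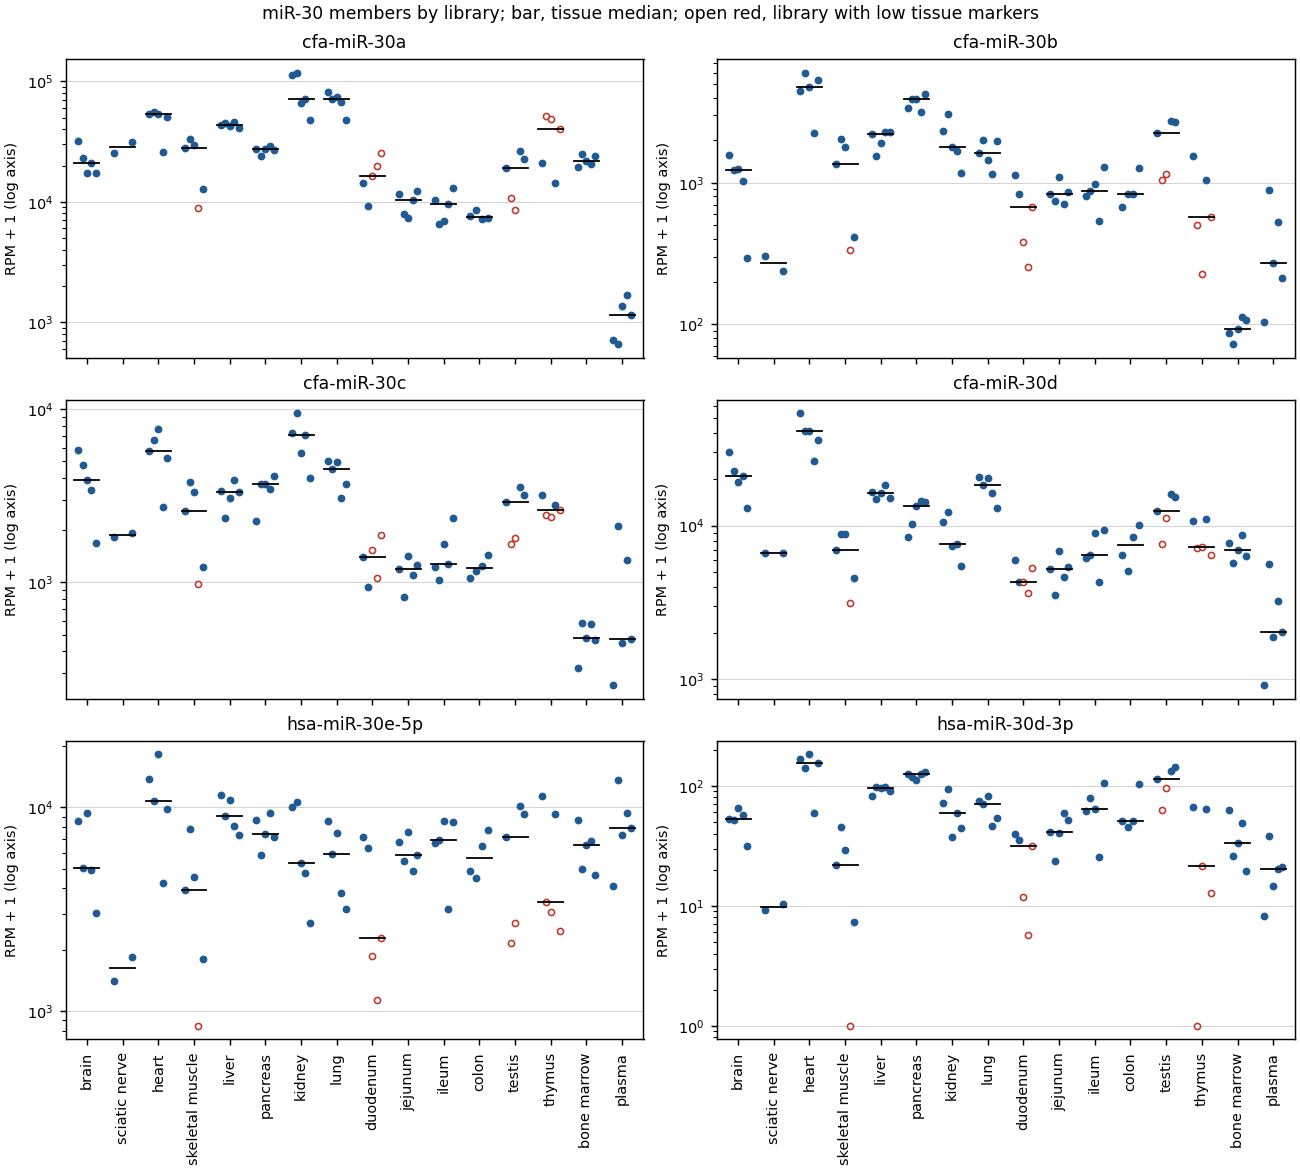
Level of the 6 miR-30 members (RPM + 1, log axis) in each of the 76 libraries by tissue, with a bar at the tissue median and open red points for low-marker libraries. cfa-miR-30a fell to 652 to 1675 RPM in plasma, below every other library, and cfa-miR-30b to 71.1 to 111 RPM in bone marrow.

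A miRNA was called tissue enriched (TE), after the criteria of the study, by a fold above 5 over the mean of all other samples together with a rank-sum test adjusted for multiple tests. No member was TE in any tissue, 0 of 96 combinations of member and tissue, beside 3.62% of combinations over all 650 miRNAs. By the exact two-sided rank-sum test alone, after adjustment, 11 of the 96 were higher and 7 lower, beside 7.17% higher and 4.80% lower over all miRNAs. Nearest to the fold was cfa-miR-30d in heart, at 4.06-fold (exact rank-sum p = 2.17e-07, Benjamini-Hochberg adjusted p = 3.52e-05), where the smallest p that 5 libraries against 71 others can give is 1.08e-07. With medians in place of means the same fold was 5.37, past the limit.

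A test for smaller differences was made on the counts with edgeR's quasi-likelihood test, each tissue against the mean of the other 15, adjusted over the 480 miRNAs tested. All 6 members passed the filter on low counts. Of the 96 combinations, 34 were higher, 27 lower and 35 did not pass, beside 24.6% higher and 14.3% lower over all miRNAs. In heart, liver, pancreas and kidney all 6 members were higher, beside 21.9%, 23.3%, 21.2% and 24.2% of all miRNAs. In skeletal muscle and in lung 3 members were higher (26.5% and 20.6% of all miRNAs), in testis 2 were higher and 1 lower (34% and 16%), and in thymus 1 was higher (21.2%). In bone marrow 4 and in plasma 4 members were lower, beside 24.6% and 24.8%, and in plasma 1 was higher, beside 27.9%. Members were lower and none higher in brain (4, beside 28.1%), sciatic nerve (4, 14.4%), jejunum (3, 13.1%), ileum (3, 8.75%), duodenum (2, 3.75%) and colon (2, 6.46%).

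These calls depend in part on how libraries are scaled. Scaling by total reads in place of the trimmed mean of M values (TMM) moved the median log2 fold change of all miRNAs by 1.09 in brain, -0.59 in kidney, -0.44 in skeletal muscle and -0.44 in plasma. All 6 heart calls held with TMM, with size factors from a median of ratios and with total reads. Of the 6 calls in each of liver, pancreas and kidney, 4, 3 and 3 held. In lung and in ileum 1 of 3 calls held, and in bone marrow 2 of 4. None of the 4 brain calls, the 3 skeletal muscle calls or the 1 higher call in plasma did. In all, 20 of the 34 higher and 17 of the 27 lower calls held in these 3 scalings. The share of all miRNAs that held in them is not given here. With TMM the median log2 fold change of all miRNAs was lowest in bone marrow, at -0.97, and next in plasma, at -0.59. Fold changes of members in these tissues are to be read beside these medians. Of the 61 calls, 29 held in every alternative run, with 17 higher and 12 lower, beside 13.1% and 7.14% of all combinations. The values below are log2 fold changes ± standard error (SE) from edgeR, and those of the members against the mean of the other tissues held in every alternative unless a remark says otherwise.

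**Figure D2:**
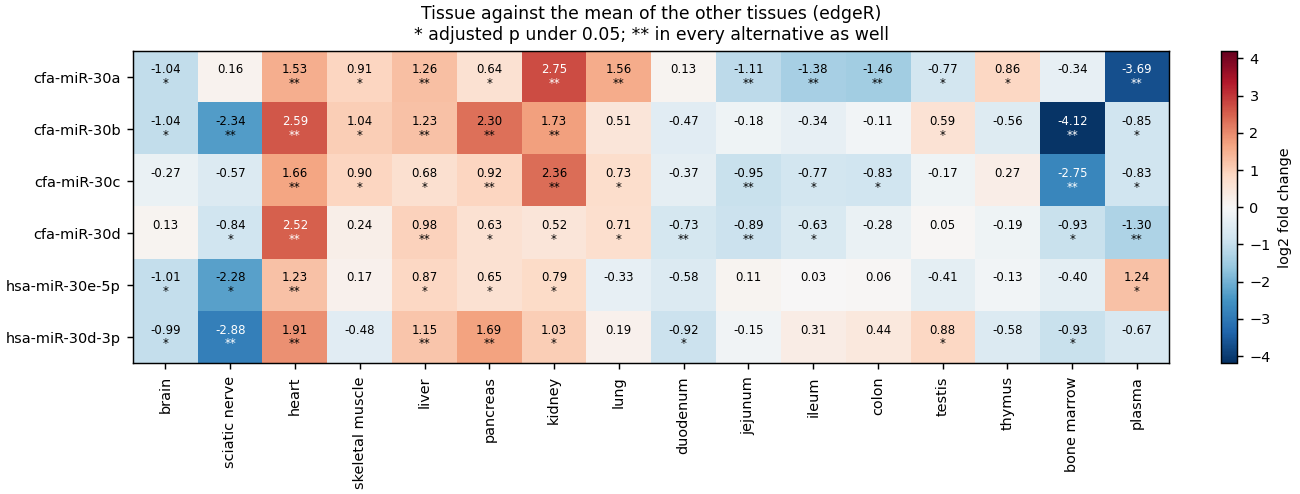
Log2 fold change of each member in each tissue against the mean of the other 15 tissues (edgeR, color scale), with 1 star for an adjusted p under 0.05 and 2 stars for calls that held in every alternative as well. In the heart column all 6 values are positive with 2 stars, from 1.23 for hsa-miR-30e-5p to 2.59 for cfa-miR-30b, and the darkest blue cell is cfa-miR-30b in bone marrow at -4.12.

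The chromosome 12 member cfa-miR-30a, which represses among other targets the autophagy gene Beclin 1 in published work, was the most abundant of the family and peaked in kidney. In kidney its levels in replicates 1 to 5 were 113905, 118356, 65888, 72089 and 47978 RPM, where it was the third miRNA of the tissue by median. In lung they were 81889, 71735, 74471, 67350 and 47951 RPM. Kidney replicates 1 and 2 lay above every other library, while the remaining kidney libraries overlapped lung.

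Against the mean of the other tissues cfa-miR-30a was 6.73-fold higher in kidney (log2 2.75 ± 0.19, adjusted p = 5.59e-20) and 2.95-fold higher in lung (1.56 ± 0.22, adjusted p = 2.92e-08). The kidney and lung medians, 72089 and 71735 RPM, were nearly equal, yet after TMM scaling kidney exceeded lung by 1.12 ± 0.35 on the log2 scale (adjusted p = 0.0107), and with total reads the difference was 0.28 (adjusted p = 0.588). Of all miRNAs 16.7% were higher in kidney than in lung. The order of these tissues thus rested on the scaling. In heart cfa-miR-30a stood at 53405, 56165, 53502, 25867 and 51018 RPM, with replicate 4 below the others, and the fold change was 1.53 ± 0.22 (adjusted p = 1.69e-08). Liver was tight, at 41341 to 46320 RPM, and higher by 1.26 ± 0.22 (adjusted p = 3.67e-06).

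At the low end, cfa-miR-30a measured 702, 652, 1360, 1675 and 1152 RPM in plasma, whereas the lowest of the 71 other libraries, an ileum library, had 6527 RPM. No plasma library overlapped any tissue library, which was so for 4.14% of the 266 highly expressed miRNAs. The fold change was -3.69 ± 0.35, 12.9-fold lower (adjusted p = 7.43e-15). The red cell miRNA cfa-miR-486 took 42.3 to 76.1% of the reads in plasma and at most 27.5% elsewhere, and the total behind each RPM includes it. With total reads in place of TMM the call held as well. The intestine was also low for cfa-miR-30a, with -1.11 ± 0.28 in jejunum (adjusted p = 0.00117), -1.38 ± 0.29 in ileum (adjusted p = 9.98e-05) and -1.46 ± 0.33 in colon (adjusted p = 0.000383).

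The miR-30c row sums the chromosome 12 and chromosome 15 hairpins and had a profile like that of cfa-miR-30a in kidney and like that of cfa-miR-30b in bone marrow. In kidney cfa-miR-30c measured 7317, 9448, 5558, 7098 and 3993 RPM and in heart 5761, 6658, 7689, 2739 and 5220 RPM, with overlap between these tissues. It was higher in kidney by 2.36 ± 0.18 (adjusted p = 1.30e-18), in heart by 1.66 ± 0.19 (adjusted p = 2.83e-11) and in pancreas by 0.92 ± 0.21 (adjusted p = 0.000178). In bone marrow it measured 320, 582, 476, 577 and 464 RPM, below all libraries but those of plasma, with a fold change of -2.75 ± 0.29 (adjusted p = 1.51e-12). Plasma varied more, at 255, 2110, 444, 1344 and 472 RPM, so its low median rested on 3 of 5 libraries. The plasma fold change of -0.83 ± 0.25 (adjusted p = 0.00284) was -0.19 without sciatic nerve replicate 1, -0.20 without sciatic nerve replicate 2 and -0.21 with the highly expressed miRNAs alone, and passed in none of these fits.

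The chromosome 13 member cfa-miR-30b was the lowest of the 5p arms and had the largest single change. In bone marrow it measured 86.3, 71.1, 91.9, 111 and 106 RPM. The next library, a plasma library with 102 RPM, fell inside this range, and every library of the other 14 tissues had 225 RPM or more. The fold change in bone marrow was -4.12 ± 0.37, 17.4-fold lower (adjusted p = 1.95e-15), and cfa-miR-30b in bone marrow was below each of the other 15 tissues in the pairwise test. By contrast cfa-miR-30d, its neighbour on chromosome 13, was at 5736 to 8664 RPM in bone marrow, within the range of other tissues, and its bone marrow fold change of -0.93 ± 0.21 (adjusted p = 0.000162) was lost with total reads, with limma and with no filter on low counts, and in 41 of the fits that left out 1 library, where it ranged up to -0.36. TMM takes 1 library as its reference, here colon replicate 3, and another library became the reference in 51 of these fits. The fold change was -0.99 to -0.92 in the fits that kept the reference and -1.07 to -0.36 in the others. With all libraries and TMM, the median log2 fold change of all miRNAs in bone marrow was -0.97, near that of cfa-miR-30d.

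Heart and pancreas held the highest levels of cfa-miR-30b. In heart it measured 4435, 6004, 4783, 2248 and 5314 RPM, and in pancreas 3362, 3934, 3931, 3170 and 4264 RPM. Each pancreas library lay above every testis library, the next tissue by median, whose highest had 2723 RPM. The fold changes were 2.59 ± 0.20 in heart (adjusted p = 1.14e-18), 2.30 ± 0.20 in pancreas (adjusted p = 5.42e-16), 1.73 ± 0.21 in kidney (adjusted p = 2.55e-10) and 1.23 ± 0.22 in liver (adjusted p = 5.89e-06). Sciatic nerve was low, with 301 and 237 RPM and a fold change of -2.34 ± 0.49 (adjusted p = 8.37e-05). In pancreas cfa-miR-30b was as abundant as cfa-miR-30c, with a ratio of cfa-miR-30c to cfa-miR-30b of 0.939 (0.670 to 1.10), whereas in bone marrow the ratio was 5.18 (3.71 to 8.18).

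The abundant chromosome 13 member cfa-miR-30d had its highest levels in heart, though it was detected in every library and was not TE there. It measured 53753, 41187, 41492, 26368 and 35921 RPM in heart and 30215, 22651, 19318, 21163 and 13022 RPM in brain, the next tissue by median. The lowest heart library, replicate 4, overlapped brain and no other tissue. The fold change in heart was 2.52 ± 0.15, 5.74-fold higher (adjusted p = 2.80e-24), and heart exceeded each of the other 15 tissues in the pairwise test. In brain the edgeR fold change was 0.13 ± 0.19 (adjusted p = 0.586), although the rank-sum test on RPM gave 1.92-fold (exact p = 0.00208, adjusted p = 0.00555). The tests differ in scaling, in the samples they compare with and in how the fold is taken, and the part of each was not tested. Liver was higher by 0.98 ± 0.17 (adjusted p = 2.95e-06), with levels of 14953 to 18517 RPM. Lower were duodenum (-0.73 ± 0.20, adjusted p = 0.00411), jejunum (-0.89 ± 0.21, adjusted p = 0.000396) and plasma (-1.30 ± 0.22, adjusted p = 3.30e-07).

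Its partner arm hsa-miR-30d-3p was scarce throughout, with a tissue median above 100 RPM in 3 tissues, heart, pancreas and testis. Heart had 165, 140, 182, 58.7 and 153 RPM and pancreas 123, 117, 112, 126 and 129 RPM, with overlap. The fold changes were 1.91 ± 0.25 in heart (adjusted p = 1.06e-09), 1.69 ± 0.25 in pancreas (adjusted p = 5.13e-08) and 1.15 ± 0.27 in liver (adjusted p = 0.000326). Sciatic nerve was lowest, with 8.24 and 9.45 RPM and -2.88 ± 0.62 (adjusted p = 0.000119). The order of the tissue medians of hsa-miR-30d-3p was nearer to that of cfa-miR-30b (Spearman's rho 0.88) than to that of cfa-miR-30d (0.73), as a description over 16 tissues that share libraries and scaling.

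The chromosome 15 member hsa-miR-30e-5p was the most even of the family. In heart it measured 13747, 10745, 18264, 4235 and 9832 RPM, in liver 11508, 9061, 10851, 8128 and 7362 RPM, and in plasma 4116, 13574, 7307, 9356 and 7910 RPM. These 3 tissues overlapped throughout. Heart passed the test at 1.23 ± 0.25 (adjusted p = 4.75e-05) in every alternative. Plasma, where the other 5p rows were called lower, was higher for hsa-miR-30e-5p by 1.24 ± 0.25 (adjusted p = 1.78e-05), but the difference was 0.55 with total reads and 0.58 with limma on log2(RPM + 1), and passed in neither. Sciatic nerve had 1396 and 1847 RPM and a fold change of -2.28 ± 0.55 (adjusted p = 0.000561), with -2.12 without sciatic nerve replicate 1 (adjusted p = 0.0612). In that fit sciatic nerve is 1 library that is assumed to vary like the other tissues.

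The make-up of the family therefore changed with tissue, mostly between cfa-miR-30a and the others. Among reads of the 5 5p rows, cfa-miR-30a took a median of 77.3% in kidney (76.6 to 79.0%), 72.9% in sciatic nerve and 69.4% in lung, but 45.3% in jejunum, 37.6% in ileum and 33.1% in colon. Thymus and duodenum, with medians of 77.0% and 67.2%, were split. In thymus the share was 77.0 to 79.3% in the low-marker libraries and 37.2 and 43.8% in the others, and in duodenum 67.2 to 76.6% against 42.7 and 47.9%. In brain it was level with cfa-miR-30d (40.7% and 38.6%), as in colon (33.1% and 33.2%), and in heart the shares were 42.6% and 34.1%. A share within the family does not depend on the scaling of libraries. The ratio of cfa-miR-30a to cfa-miR-30d set kidney apart, at 8.84 to 10.8 in the 5 kidney libraries and at most 7.25 in any other.

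Plasma had a make-up of its own. There hsa-miR-30e-5p took 57.9 to 67.6% of the family's reads, against 3.92 to 31.7% in the other 71 libraries, and cfa-miR-30a took 2.86 to 12.1%, against 25.7 to 79.3%. Neither range overlapped the other tissues. The ratio of cfa-miR-30a to hsa-miR-30e-5p was 0.171 in the median plasma library (0.0481 to 0.186) and at least 0.812 in every library of another tissue. Shares of cfa-miR-30d, cfa-miR-30c and cfa-miR-30b in plasma overlapped those of the tissues.

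**Figure D3:**
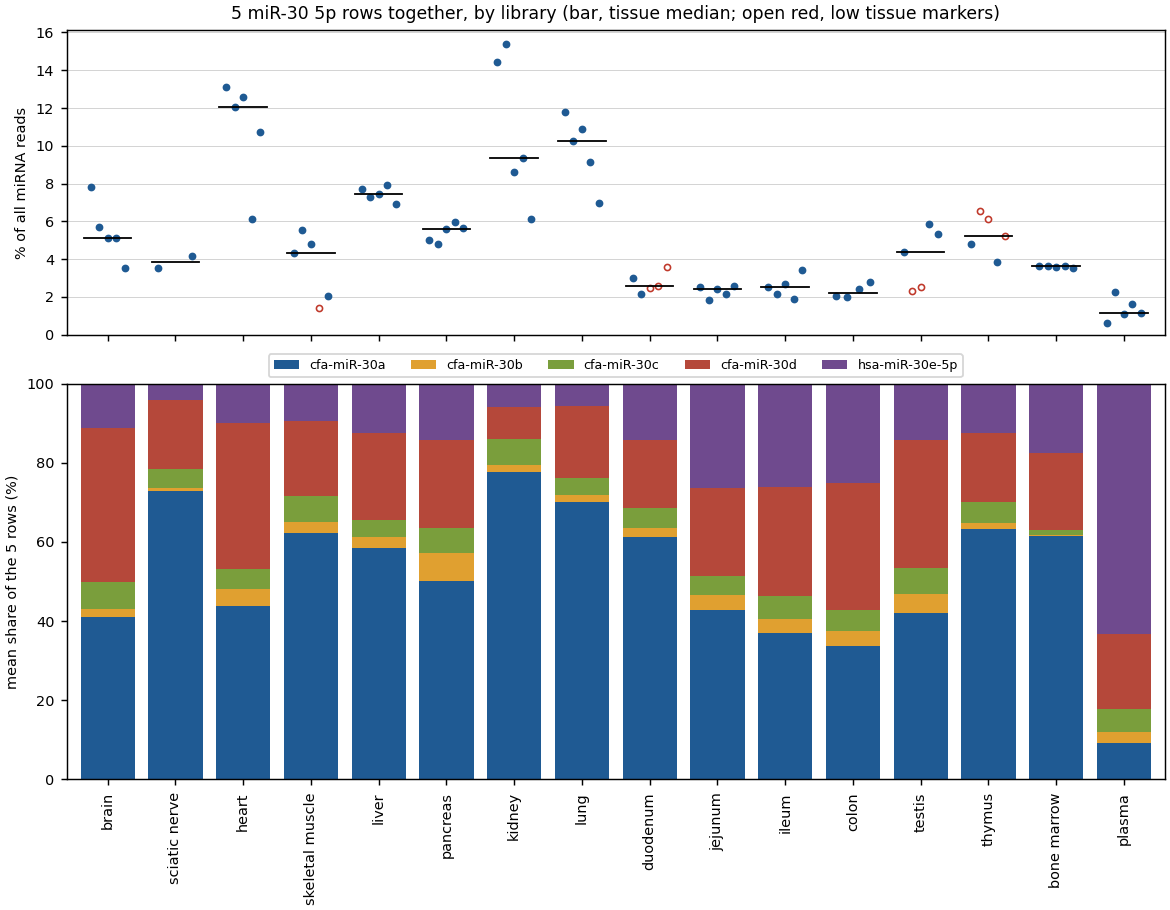
Upper part, percent of all miRNA reads held by the 5 miR-30 5p rows in each library (bar, tissue median; open red, low-marker libraries). Lower part, mean share of each of the 5 rows among the family's reads by tissue. Plasma is lowest in the upper part, at 0.609 to 2.28%, and hsa-miR-30e-5p fills most of its bar in the lower part, at 57.9 to 67.6% by library.

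Tissues were also compared in pairs from the same fit. Of 720 comparisons (120 pairs of tissues for 6 members) 431 passed, beside 41.9% over all miRNAs. The number was highest for cfa-miR-30b (85 of 120) and cfa-miR-30a (82), and lowest for hsa-miR-30d-3p (63) and hsa-miR-30e-5p (52). Along the order of medians, 4 of 15 pairs of neighbouring tissues differed for cfa-miR-30a, 5 for cfa-miR-30b, 7 for cfa-miR-30c, 3 for cfa-miR-30d, 3 for hsa-miR-30d-3p and 4 for hsa-miR-30e-5p. Not every difference followed the order of medians. By edgeR cfa-miR-30c was lower in brain than in pancreas (-1.11, adjusted p = 0.00126), although its brain median was higher. It was likewise lower in bone marrow than in plasma (-1.81, adjusted p = 2.88e-06), against the order of these medians. Over all miRNAs tested, 13.8% of neighbouring tissues in a miRNA's own order differed in either direction. For cfa-miR-30a the neighbours that differed were kidney and lung, pancreas and bone marrow, duodenum and jejunum, and colon and plasma, and for cfa-miR-30d they were heart and brain, kidney and colon, and skeletal muscle and bone marrow. The other neighbours of these members were not shown to differ beyond their spread. The kidney and lung difference of cfa-miR-30a did not pass with total reads, as given above. In duodenum cfa-miR-30a was at 16497 to 25551 RPM in the low-marker libraries and at 9219 and 14390 RPM in the others, against 7364 to 12403 RPM in jejunum.

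Heart and skeletal muscle, the striated muscle tissues, parted over some members. In skeletal muscle cfa-miR-30d measured 6965, 8785, 8820, 3148 and 4586 RPM, below every heart library. The difference was 2.14 ± 0.27 on the log2 scale (4.39-fold higher in heart, adjusted p = 4.65e-09), with cfa-miR-30b higher by 1.45 ± 0.35 (adjusted p = 0.00217) and hsa-miR-30d-3p by 2.25 ± 0.44 (adjusted p = 0.000118). For cfa-miR-30a the difference was 0.59 ± 0.35 (adjusted p = 0.287), for cfa-miR-30c 0.71 ± 0.31 (adjusted p = 0.124) and for hsa-miR-30e-5p 1.00 ± 0.39 (adjusted p = 0.0888), and with total reads all 3 passed. Of all miRNAs 6.25% were higher in heart in this comparison. Skeletal muscle replicate 4 was a low-marker library, with 9.07 RPM of the muscle miRNA cfa-miR-1 against 1390 to 3055 RPM in the others, and was lowest of its tissue for all 6 members. Without the low-marker libraries the heart to skeletal muscle differences of cfa-miR-30d, cfa-miR-30b and hsa-miR-30d-3p were 1.93, 1.22 and 1.99 and passed, and those of the other 3 members did not. Against the mean of the other tissues skeletal muscle was called higher for cfa-miR-30a (0.91), cfa-miR-30b (1.04) and cfa-miR-30c (0.90), beside 26.5% of all miRNAs. These were 1.24, 1.17 and 1.13 without the low-marker libraries, where cfa-miR-30d passed as well (0.42, adjusted p = 0.0190). Without skeletal muscle replicate 2 they were 0.63, 0.64 and 0.57, and with total reads 0.16, 0.27 and 0.13, and none of them passed.

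Bone marrow and plasma, the blood-related samples, differed in opposite directions by member. From plasma to bone marrow cfa-miR-30a was higher by 3.14 ± 0.38 (8.84-fold, adjusted p = 1.23e-10), while cfa-miR-30b was lower, at -3.07 ± 0.39 (8.39-fold, adjusted p = 5.29e-10), as were cfa-miR-30c at -1.81 ± 0.32 (adjusted p = 2.88e-06) and hsa-miR-30e-5p at -1.54 ± 0.40 (adjusted p = 0.000943). For cfa-miR-30d the difference was 0.35 ± 0.26 (adjusted p = 0.318). With total reads the differences were 4.32, -2.11, -0.94, -0.42 and 1.36, so that hsa-miR-30e-5p no longer passed (adjusted p = 0.563) and cfa-miR-30d did (adjusted p = 0.000160). In this comparison 16.7% of all miRNAs were higher and 26.5% lower in bone marrow.

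The 7 other rows were read for the loci they come from. Of their 112 combinations with a tissue, 32 were higher, 20 lower and 60 did not pass, shares near the 24.6% and 14.3% over all miRNAs. The 3p arm of the chromosome 12 neighbour, hsa-miR-30c-2-3p, measured 296, 320, 298, 336 and 313 RPM in kidney, where hsa-miR-30c-1-3p from chromosome 15 measured 54.1, 58.3, 37.3, 48.5 and 37.4 RPM. In heart the arms were near each other, at 147, 183, 185, 91.4 and 116 RPM for hsa-miR-30c-2-3p and 132, 126, 157, 78.3 and 128 RPM for hsa-miR-30c-1-3p. In kidney the ranges of the arms lay far apart, and in heart they overlapped.

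In kidney hsa-miR-30c-2-3p was higher by 3.60 ± 0.24 (adjusted p = 2.11e-21) and its neighbour hsa-miR-30a-3p by 3.15 ± 0.23 (adjusted p = 1.77e-19), against 0.81 ± 0.22 for hsa-miR-30c-1-3p (adjusted p = 0.00161), which did not hold in all 3 scalings. In heart hsa-miR-30c-1-3p was higher by 1.89 ± 0.20 (adjusted p = 8.73e-13) and its neighbour cfa-miR-30e, which is the 3p arm of miR-30e, by 2.26 ± 0.17 (adjusted p = 1.91e-18). Of the reads on both 3p arms of miR-30c, the chromosome 12 arm took 87.4% in the median kidney library, 76.0% in sciatic nerve, 70.4% in lung, 53.8% in heart, 30.7% in ileum and 25.1% in colon. In thymus the median was 74.1%, with 74.1 to 77.2% in the low-marker libraries and 28.4 and 45.6% in the others. The kidney range by library, 84.6 to 89.3%, lay above that of every other tissue. Over the summed reads the share was 7.79% in plasma, from 6 and 71 reads, and 27.3% in bone marrow, from 6 and 16 reads, which are too few to place these tissues in the order.

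Some rows from the same place in the genome had like orders of tissues, and others did not. Spearman's rho over the 16 tissue medians was 0.95 for hsa-miR-30a-3p with hsa-miR-30c-2-3p on chromosome 12 and 0.94 for cfa-miR-30e with hsa-miR-30c-1-3p on chromosome 15, and it was 0.64 for hsa-miR-30a-3p with hsa-miR-30c-1-3p and 0.72 for cfa-miR-30e with hsa-miR-30c-2-3p across places. The 5p arm hsa-miR-30e-5p had a rho of 0.012 with hsa-miR-30c-1-3p of the same place. On chromosome 12 rho was 0.86 for cfa-miR-30a with hsa-miR-30c-2-3p. On chromosome 13 it was 0.88 for cfa-miR-30b with hsa-miR-30d-3p and 0.75 for cfa-miR-30b with cfa-miR-30d. The latter was no higher than the 0.77 of cfa-miR-30b and the 0.79 of cfa-miR-30a with cfa-miR-30c. It was also below the 0.84 of cfa-miR-30d with cfa-miR-30c, which have no place in common. The cfa-miR-30c row includes the chromosome 12 hairpin beside MIR30A, so its pair with cfa-miR-30a is not wholly across places. The arms of miR-30e had unlike orders, with a rho of 0.03 between hsa-miR-30e-5p and cfa-miR-30e, where miR-30a had 0.89. These correlations describe 16 medians that share libraries and scaling.

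**Figure D4:**
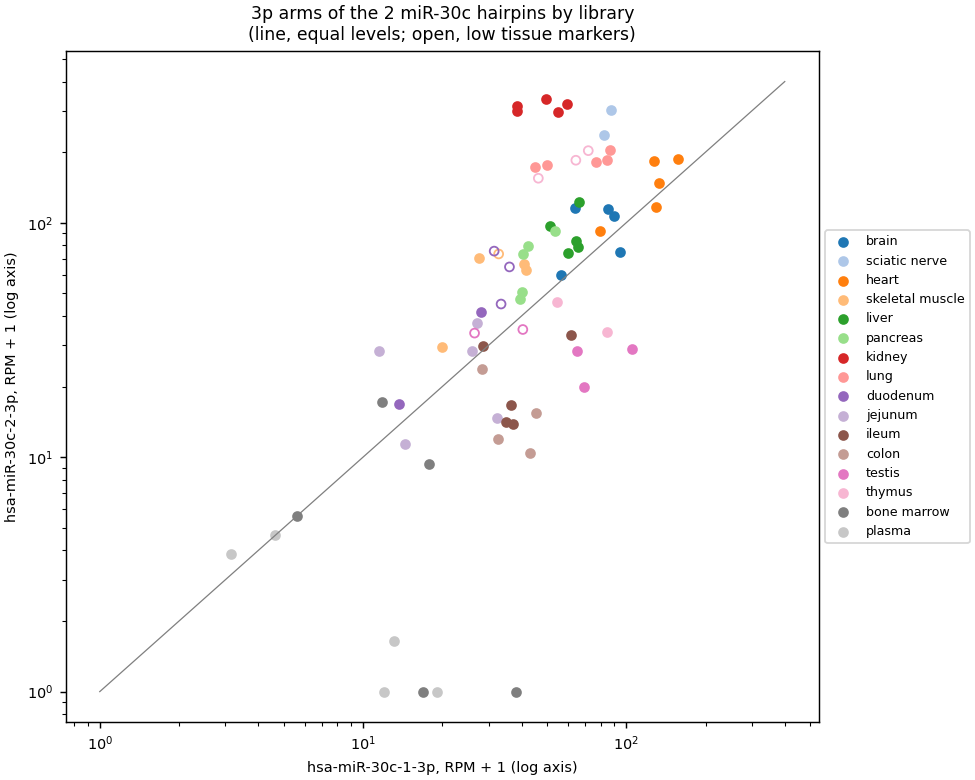
Level of the 3p arms of both miR-30c hairpins in each library (RPM + 1, log axes), with the chromosome 15 arm on the horizontal and the chromosome 12 arm on the vertical axis, colored by tissue, and a line at equal levels. The 5 kidney libraries lie far above the line, at 84.6 to 89.3% of the summed reads, the heart libraries near it, and the colon libraries below it.

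The ratio of the arms of 1 hairpin within a library does not depend on scaling. For miR-30d the 5p arm had 170 reads for each 3p read in the median library, for miR-30a 50.6 and for miR-30e 13.2. The log2 ratio of 3p to 5p reads of miR-30d (with 0.5 read added to each) was lower in brain, at a median of -8.73 (-9.16 to -8.22), by 1.35 than the median elsewhere (difference of -1.35, exact rank-sum p = 0.00309, adjusted p = 0.0191). It was also lower in skeletal muscle (difference of -0.96, adjusted p = 0.0445) and higher in pancreas, with a median of -6.78 (-6.91 to -6.10) and a difference of 0.64 (exact rank-sum p = 0.00151, adjusted p = 0.00509). The ranges of all 3 tissues overlapped those of other tissues. In skeletal muscle the 3p arm had 0 reads in replicate 4 and 2 in replicate 5, so these ratios rest on few reads.

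These calls must be read beside the number of arm pairs that moved. Over the 37 arm pairs tested, 16.2% passed in brain, 32.4% in skeletal muscle and 45.9% in pancreas. The brain call for miR-30d was lost without brain replicate 1, 2, 4 or 5 (adjusted p = 0.0536 to 0.0685), although the difference stayed at -1.38 to -1.25. The skeletal muscle call was lost without skeletal muscle replicate 1, 3, 4 or 5 (difference of -1.38 to -0.93, adjusted p = 0.0739 to 0.151) and without the low-marker libraries (-0.99, adjusted p = 0.0658), whereas no single library ended the call in pancreas. In sciatic nerve the ratio of miR-30d was lowest of all tissues by median, at -9.49 in 2 libraries with 8 and 11 3p reads. It did not pass (exact rank-sum adjusted p = 0.0623), where 10.8% of arm pairs passed.

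In bone marrow the arm ratios of miR-30a and miR-30e both moved, and in plasma that of miR-30e. The plasma difference of miR-30a was 0.24 and did not pass (exact rank-sum adjusted p = 0.556). For miR-30a the ratio in bone marrow was 1.64 lower than elsewhere (difference of -1.64, exact rank-sum adjusted p = 1.40e-05), with -1.12 in pancreas (adjusted p = 0.00202). For miR-30e the difference was -2.34 in bone marrow (adjusted p = 0.000185) and -2.41 in plasma (adjusted p = 3.53e-05), where 3p reads were 1.45% and 1.56% of the hairpin's reads, against 27.2% in sciatic nerve. In bone marrow 51.4% and in plasma 73.0% of the 37 arm pairs passed, so a changed arm ratio was common there. The ratios of miR-30a and miR-30e were higher in sciatic nerve (differences of 1.81 and 2.45, both adjusted p = 0.0260) and in skeletal muscle (0.63 and 0.99, adjusted p = 0.0399 and 0.0463), and that of miR-30e was lower in jejunum (-0.98, adjusted p = 0.0492). Of all arm pairs 16.2% passed in jejunum, and 17.1% over all tissues. Without the low-marker libraries the skeletal muscle differences were 0.62 and 1.06 and did not pass (adjusted p = 0.0652 and 0.0638). The ratios of miR-30a and miR-30e were not rerun under the other alternatives.

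**Figure D5:**
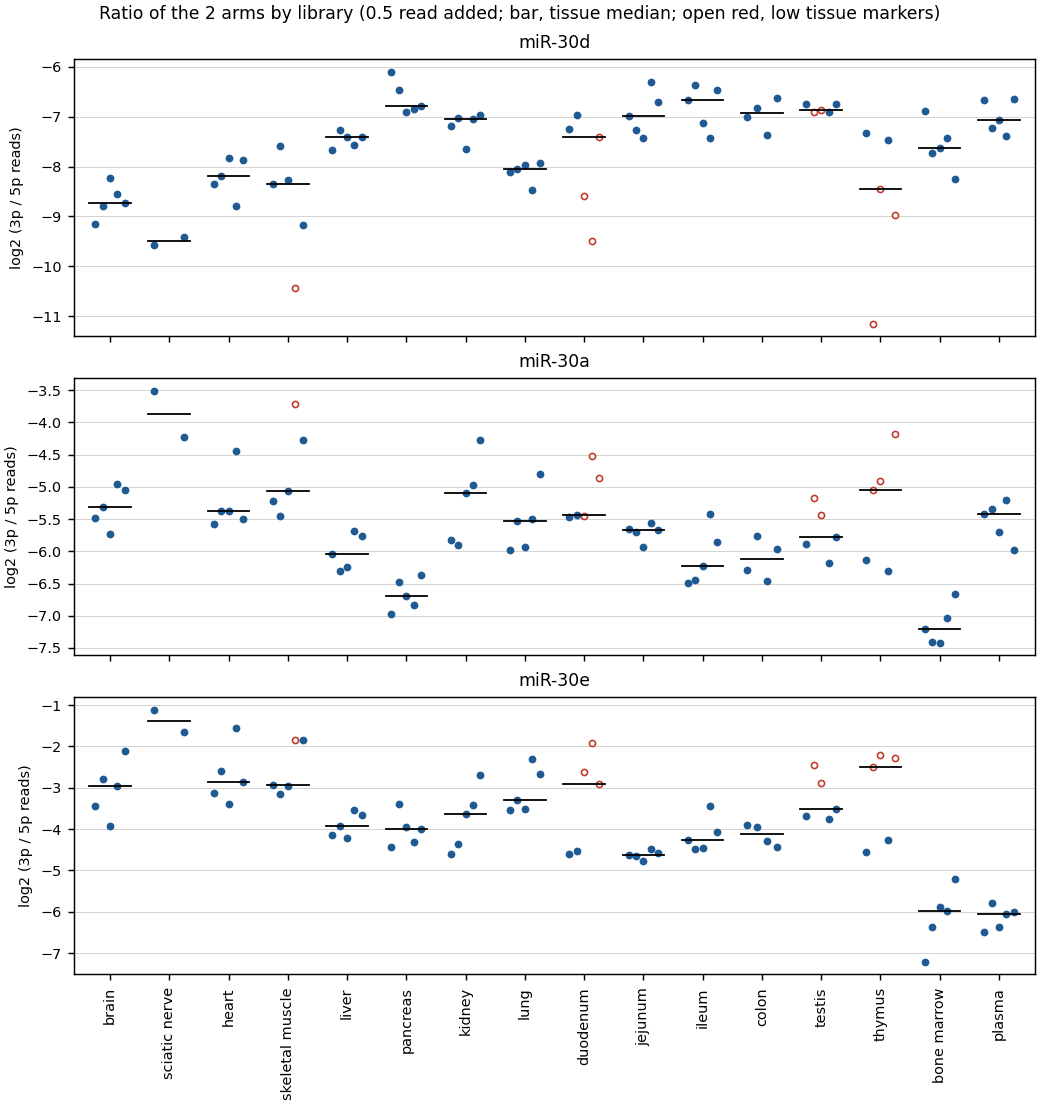
Log2 ratio of 3p to 5p reads (0.5 read added to each) of miR-30d, miR-30a and miR-30e in each library by tissue, with a bar at the tissue median and open red points for low-marker libraries. The bone marrow libraries of miR-30a lie between -7.42 and -6.66, and the plasma libraries of miR-30e between -6.50 and -5.78.

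In thymus and testis the levels of the members did not overlap between low-marker and other libraries, nor did they in duodenum except for cfa-miR-30c and cfa-miR-30d. The share of all miRNAs without such overlap was not computed, and so few libraries can part by chance. The other rows hsa-miR-30a-3p, hsa-miR-30c-2-3p and cfa-miR-30e did not overlap in these tissues either, while hsa-miR-30b-3p did. The parting is thus not shown to be particular to the members. In thymus cfa-miR-30a measured 20993 and 14327 RPM in replicates 1 and 4, and 52068, 48578 and 40357 RPM in the low-marker replicates 2, 3 and 5, where hsa-miR-30e-5p went the other way, with 9274 to 11440 RPM in the former and 2476 to 3440 RPM in the latter. The marker cfa-miR-142, used here for thymus and bone marrow, was at 8991 and 14022 RPM in replicates 4 and 1. In the low-marker libraries it was at 234 to 335 RPM. The smooth muscle miRNA cfa-miR-143 was at 15742 to 32851 RPM in replicates 4 and 1 and 92135 to 132995 RPM in the low-marker libraries. The part of the markers in the result was not tested. The thymus call of cfa-miR-30a, 0.86 ± 0.23 (adjusted p = 0.00356), was 0.68 without thymus replicate 3 and -0.47 without the low-marker libraries, and passed in neither.

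In testis the low-marker replicates 2 and 3 had less of the members than the other 3 libraries, for example 2162 and 2693 RPM of hsa-miR-30e-5p against 7167 to 10124 RPM. The germ cell miRNA cfa-miR-34c was at 582 to 4631 RPM in these and at 49237 to 93353 RPM in the others. Without the low-marker libraries the testis calls of cfa-miR-30b (0.59) and hsa-miR-30d-3p (0.88) were 0.68 and 0.77 and passed, and that of cfa-miR-30a (-0.77) was -0.44 and did not (adjusted p = 0.147). In duodenum the low-marker replicates 3, 4 and 5 had 1131 to 2271 RPM of hsa-miR-30e-5p against 6288 and 7130 RPM, and 16497 to 25551 RPM of cfa-miR-30a against 9219 and 14390 RPM. The ranges of cfa-miR-30c and cfa-miR-30d overlapped. Without the low-marker libraries duodenum, then with 2 libraries, was lower for cfa-miR-30d (-1.01 in place of -0.73), cfa-miR-30c (-1.04) and cfa-miR-30a (-0.86, adjusted p = 0.0263), and the call of hsa-miR-30d-3p (-0.92) was -0.52 and did not pass. Duodenum was called higher than colon for cfa-miR-30a (1.49 ± 0.38, adjusted p = 0.00809) with these libraries in the fit, beside 3.75% of all miRNAs. Without them the difference was 0.42 (adjusted p = 0.463). The part of the markers was again not tested.

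The seed relative miR-384 was a brain miRNA at low levels. The row rno-miR-384-5p had 33.1, 14.3, 9.33, 16.3 and 16.1 RPM in brain, 4.12 and 2.58 RPM in sciatic nerve and 0 to 7.89 RPM in testis, and was detected in 17 of 76 libraries. Every brain library read above every library of another tissue, but at 9.33 RPM the lowest lay under the 19.0 RPM that 3 reads are worth in the shallowest library, so a like level there was not detectable at this depth. The row cfa-miR-384, its 3p arm, had 1.96 to 18.3 RPM in brain and was detected in 12 libraries. Even in brain the miR-384 rows were far below cfa-miR-30d or cfa-miR-30a.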

How the data were processed

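Small RNA libraries (TruSeq) were sequenced from 16 tissues of untreated dogs. Per the study's methods, the authors aligned clipped reads to CanFam3.1 with OSA v4, allowed 0 mismatches and at most 10 genomic locations, and counted reads that covered at least 70% of a miRNA locus of dog, rat or human (miRBase 21). The deposited counts are raw reads per miRNA and library, miRNAs not listed were taken as 0, and the deposited RPM are these counts scaled to a common total (reads-per-million on miRNAs), as recomputed here. The table also repeats the authors' total count per library and the highest RPM of each miRNA. Columns of comparisons by the authors were not found. Groups came from the tissue labels. 1 sample name in the table had no matching label and was not used, and 1 labelled colon sample had no values.

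TE followed the study's criteria, with the exact two-sided rank-sum test (scipy 1.17.1). Counts were tested with edgeR 4.0.16 (TMM, filterByExpr, glmQLFTest, 1 fit over all tissues, R 4.3.3), with DESeq2 1.42.0 and limma 3.58.1 as alternatives. P-values were adjusted by Benjamini-Hochberg over all miRNAs or arm pairs tested, and adjusted p under 0.05 passed. Arm ratios used 37 of 165 arm pairs with at least 10 reads in the median library. The names given are the 6 members, all other rows of miR-30 and miR-384 hairpins, for each member the 3 miRNAs with the most similar order of tissues, and the tissue markers. On simulated counts for the heart contrast (480 miRNAs), 3.2% of unchanged miRNAs, 42% of those changed 2-fold and 70% of those changed 4-fold were called. For miRNAs with at least 100 reads in the median library these were 0%, 71.0% and 94.7%. The floors of 3 reads cover counting error only, whereas the SE from edgeR include the spread among libraries. PCR copies were not marked. The members and lists were chosen with earlier results of these data known. Names of neighbouring genes came from RefSeq (assembly UU_Cfam_GSD_1.0), which is not the build of the files, so no coordinates or sequences are given.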

Additional observations from a re-analysis of the deposited data

Results flagged for a closer look

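A library far from the others of its tissue was found in 2 of 90 groups of member and tissue tested by Dixon's ratio, a rule that flags about 1 in 20 groups by chance. In heart, replicate 4 had 25867 RPM of cfa-miR-30a, where the other 4 libraries had 51018 to 56165 RPM. The same library was the lowest of heart for the other 5 members. In colon, replicate 5 had 103 RPM of hsa-miR-30d-3p, where the other 3 libraries had 44.1 to 50.4 RPM.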

How the results depend on the processing

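The number of TE combinations stayed at 0 except with medians in the fold, which gave 1 (cfa-miR-30d in heart). It was 0 whichever library was left out. The counts of calls against the mean of the other tissues stayed within 1.5-fold of 34 higher and 27 lower, from 25 to 35 higher and from 20 to 28 lower over the alternatives, and from 27 to 34 higher and 21 to 28 lower with 1 library left out. The count of pairs, 431, ranged from 363 to 467, and from 358 to 442 with 1 library left out. The 3 arm calls of miR-30d were 2 to 3, and 2 to 4 with 1 library left out. A minimum of 100 reads for arm pairs left no miR-30d pair to test.

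Directions turned in brain with total reads and with limma on log2(RPM + 1), where cfa-miR-30a came to 0.13 and 0.15, cfa-miR-30b to 0.11 and 0.024, hsa-miR-30d-3p to 0.10 and 0.27, and hsa-miR-30e-5p to 0.070 and 0.087, none of which passed. In kidney cfa-miR-30d came to -0.10 and -0.11, and in thymus cfa-miR-30a came to -0.47 without the low-marker libraries. The cause was not tested. Of the 61 calls 39 held with total reads, 40 with limma, 49 with DESeq2 and 58 without the low-marker libraries, an alternative chosen after the data were seen. No paired analysis was possible because the labels carry no dog number, although the tissues came from the same dogs. The shallowest libraries limit hsa-miR-30d-3p most, with 0 reads in 2 of them.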

Other observations

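Outside the family, the miRNAs whose order of tissue medians was most like a member's were looked up among 256 highly expressed rows, as a description over 16 tissues that share libraries and scaling. hsa-miR-99a-3p was nearest to cfa-miR-30c (Spearman's rho 0.87), cfa-miR-30d (0.81) and cfa-miR-30a (0.74). cfa-miR-22 was nearest to cfa-miR-30b (0.71) and among the nearest 3 for cfa-miR-30c (0.79), cfa-miR-30a (0.72) and cfa-miR-30d (0.68). For hsa-miR-30e-5p the nearest were cfa-miR-15a (0.74), cfa-miR-339 (0.74) and cfa-miR-101 (0.68), of which cfa-miR-15a and cfa-miR-339 had their highest median in plasma. For hsa-miR-30d-3p they were cfa-miR-135a-5p (0.63), cfa-miR-450a (0.63) and hsa-miR-424-5p (0.57). cfa-miR-193a (0.73), hsa-miR-22-5p (0.70), cfa-miR-29c (0.62), cfa-miR-1468 (0.71) and cfa-miR-331 (0.71) complete the lists for cfa-miR-30a, cfa-miR-30b, cfa-miR-30b, cfa-miR-30c and cfa-miR-30d.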
